A study of Mus musculus with 69 samples.

Results

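The change in lung gene expression seen 1 day after the highest dose of titanium dioxide nanoparticles was set against that seen after 28 days. The comparison was between 29 of the 69 arrays of the series, namely the vehicle mice and the mice given 162 µg on each of the 2 days. The spread of each gene, on which the tests rest, was estimated from all 69 arrays. Of 17639 genes tested, 111 responded on day 1, which means that they passed the test at 162 µg against vehicle and changed at least 1.5-fold. A responding gene was called persistent when its log2 fold change on day 28 had the same sign and at least 50% of the size it had on day 1, and resolved otherwise. This gave 65 resolved genes, of which 53 had risen and 12 had fallen on day 1, and 46 persistent genes, of which 35 had risen and 11 had fallen. A gene was called late when it responded on day 28 and its change on day 1 was under 50% of that on day 28, and 1 gene, Hspa1a, met this rule.

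All mice were female C57BL/6 mice that arrived at 5 to 7 weeks of age, were housed for 1 to 3 weeks and then received a single dose into the trachea. Particles were suspended in water with 2% serum, and vehicle mice received the liquid alone. NRCWE-001 is an unmodified TiO2 particle, and NRCWE-002 is TiO2 whose surface was modified to carry a positive charge. Of each particle there were 5 mice at 162 µg on day 1 and 5 on day 28, and both particles were pooled to 10 mice per day, against 5 vehicle mice on day 1 and 4 on day 28. Each array held the lung RNA of 1 mouse beside a common mouse reference RNA, so every level is a log2 ratio to that reference and only differences between mice carry a comparison. Mice are numbered within their group only to name them.

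On the 29 arrays a median of 67.8% of spots (range 61.9% to 86.7%) were well above background, and 0 spots were saturated. NRCWE-002 mouse 2 at 162 µg on day 28 stood apart, with a mean correlation of 0.861 across genes with the other mice of its group, against 0.926 to 0.984 for the other 28 arrays. Genes of alveolar type 2 cells, the surfactant-making cells that mark lung tissue, had a mean log2 ratio between 4.61 and 5.23 on all 29 arrays. The 29 arrays lay on 16 slides and were scanned on 12 days. Whole tissue was measured, so fewer cells of a type and less RNA per cell cannot be told apart.

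Particles that reach the alveoli are taken up by macrophages, and the epithelium and macrophages then release cytokines and chemokines, the small proteins that draw leukocytes out of the blood. Neutrophils come first and monocytes later. The acute phase response is the rise of a set of secreted defence and transport proteins, such as the serum amyloid A proteins, under the control of interleukin 6, interleukin 1 and the factors STAT3, C/EBP and NF-kappa B. It is known best from the liver, but lung tissue also makes several of these proteins. Interferon-stimulated genes form a separate programme of antiviral and antigen-handling proteins.

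On day 1, 255 genes (1.45% of the genes tested) passed limma's test at an adjusted p below 0.05, 187 of them higher and 68 lower at 162 µg. The 111 that also changed 1.5-fold were 0.629% of the genes tested. On day 28 only 2 genes (0.0113%) passed, Hspa1a and Slc35f3, the latter at a log2 fold change of -0.42, which is under 1.5-fold, while 1211 genes (6.87%) had an unadjusted p below 0.05. The count of 2 rested on single mice, since it was 83 without NRCWE-002 mouse 3 of day 28, 79 without NRCWE-001 mouse 3, 78 without NRCWE-002 mouse 1 and 53 without NRCWE-001 mouse 2, and 0 without any of 6 other mice of day 28. The median size of the log2 change over the 111 genes was 0.90 on day 1 and 0.41 on day 28 in the direction of day 1. Of the 111, 102 kept their sign on day 28 (91.9%, against 57.7% of all genes) and 53 had an unadjusted p below 0.05 in the direction of day 1, none in the opposite one. Among all 17639 genes 913 had such a p in the direction of their own day 1 change and 298 in the opposite one. By sign alone 3.44% of all genes were higher and 3.43% lower at that level. None of the 111 passed the adjusted test on day 28. The median share of the day 1 change that was kept was 44.3%, with an SD of 33.7 over the 10 mice at 162 µg on day 28, whose own medians ran from 0.711% to 88.5%.

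**Figure D1:**
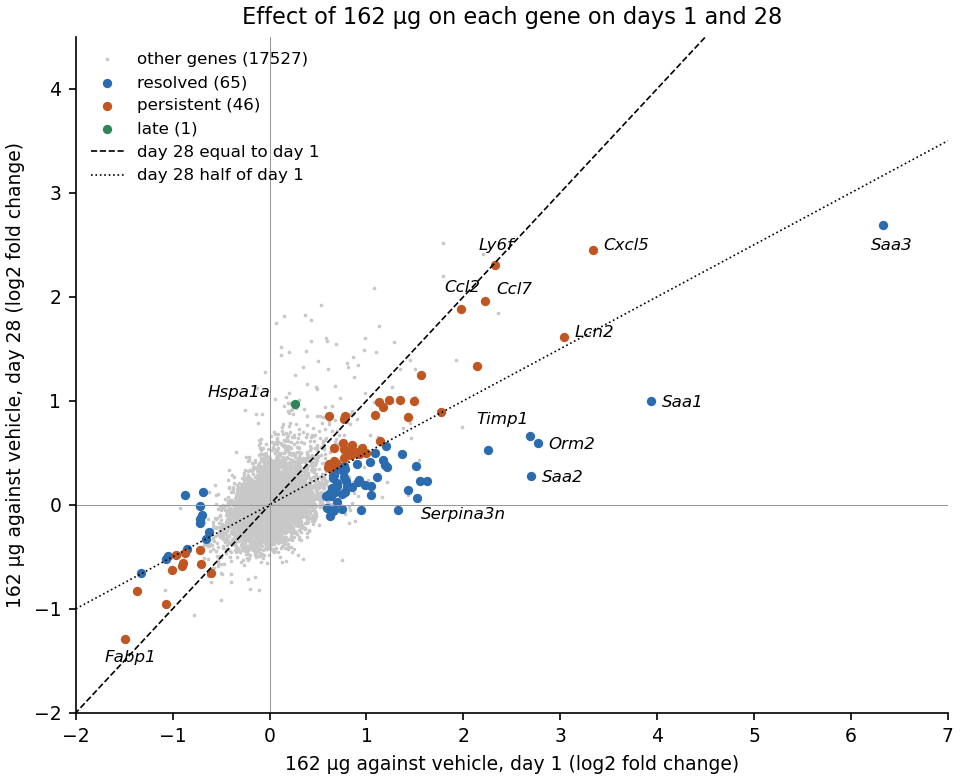
The log2 fold change of each of the 17639 genes at 162 µg against vehicle is plotted for day 1 on the horizontal axis and for day 28 on the vertical axis, with both particles pooled. The 65 resolved genes lie between the horizontal axis and the dotted line or across that axis, the 46 persistent genes lie between the dotted line and the dashed line or past it, and Hspa1a is the 1 late gene.

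The direct test of the effect on day 28 against that on day 1 called 0 genes (0%) with limma, while 885 genes (5.02%) had an unadjusted p below 0.05. Of the 65 resolved genes 47 were among those 885, and of the 46 persistent genes none was, which follows in part from how the groups were made. With slide as a fixed block the difference was called for 15 genes (0.085%), with slide as a random block for 42 (0.238%) and with the day of scanning as a block for 50 (0.283%). The 111 genes held 4, 14 and 5 of these in turn, and all of them were resolved genes. Orm1 and Orm2 were called in both slide fits, and Saa2 and Cdc42ep3 in all 3 fits.

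The groups do not fall apart at the line between them. Of the 111 genes, 30 kept between 40% and 60% of their day 1 change. Cxcl3 (50.2% kept) was the last persistent gene and Igfbp3 (49.9% kept) the first resolved one. At the other limits, Nme1 (1.501-fold) was just inside the fold limit and Kazald1 (1.499-fold) just outside, and Ccl3 (adjusted p = 0.0487 in limma) and Ccno (adjusted p = 0.0507) stood on either side of the test. There were 133 genes with a 1.5-fold change on day 1 that did not pass the test, and 144 that passed it with a smaller change.

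Saa3 and Saa1, acute phase genes, had the largest rises on day 1 among the 111 genes. Most acute phase genes that rose were resolved, as were 65 of all 111 genes. Resolved does not mean back at the vehicle level. Of the 65 resolved genes 56 kept their sign on day 28, and 9 had an unadjusted p below 0.05 in limma in that direction, none in the opposite one. Saa3 still had a log2 fold change of 2.69 on day 28, above the 2.45 of Cxcl5, a persistent gene. Of 17 tested genes of the acute phase list, 12 rose on day 1, of which 10 were resolved (Saa1, Saa2, Saa3, Orm1, Orm2, Timp1, Hpx, Serpina3n, Cp and Itih4) and 2 were persistent (Lcn2 and Cd14). The median log2 fold change of the list was 1.52 on day 1 and 0.37 on day 28, against 0.003 and -0.004 over all genes. On day 28 none of the 17 passed the adjusted test, and 3 had an unadjusted p below 0.05, all higher.

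Saa3, the serum amyloid A form made outside the liver by macrophages and epithelium, had the largest change. Its log2 ratio in the vehicle mice of day 1 was -3.95, -3.59, -3.54, -3.22 and -3.19, and at 162 µg it ran from -3.74 over a median of 3.98 to 5.02. On day 28 the vehicle mice had -4.01, -3.88, -3.86 and -3.68, and the mice at 162 µg ran from -3.68 over -0.80 to 1.95. On day 1, 9 of 10 mice at 162 µg lay above all vehicle mice, and on day 28 also 9 of 10, most of them at far lower levels. The log2 fold change was 6.33 ± 1.00 (SE, n = 10 against 5, adjusted p = 9.82e-05, limma) on day 1 and 2.69 ± 1.08 on day 28 (n = 10 against 4, adjusted p = 0.552). Between the days it differed by -3.64 (95% CI -6.59 to -0.70).

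Saa1 and Saa2 are the serum amyloid A forms that the liver secretes into blood, and their sequences are so close that probes can share signal. Saa1 changed by 3.94 ± 0.59 on the log2 scale on day 1 (SE, adjusted p = 3.71e-05, limma) and by 1.00 ± 0.63 on day 28, and its pair of probes gave 2.93 and 4.94 on day 1. Saa2 changed by 2.70 ± 0.39 and then 0.28 ± 0.42, so that 10.4% of its change was left. In 9 of the 10 mice at 162 µg on day 1, and in 4 of the 10 on day 28, Saa2 lay above all vehicle mice.

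Orm2 and Orm1 encode orosomucoids, abundant plasma proteins that bind drugs and lipids. Orm2 was not well above background in any vehicle mouse of day 1, where its log2 ratio was -0.08, 0.06, 0.15, 0.23 and 0.30, and at 162 µg it ran from 0.36 over a median of 3.21 to 4.14. All 10 mice at 162 µg lay above all 5 vehicle mice. The log2 fold change of the ratios was 2.77 ± 0.39 (SE, adjusted p = 2.15e-05, limma). Since the vehicle level is only a bound, the means of the lung channel alone gave a rise of at least 7.44-fold, a scale that no dye swap corrects. This figure bounds the vehicle signal only and does not allow for the spread between mice, so it is not a lower limit on the ratio. On day 28 its log2 ratio ran from 0.06 over 0.53 to 1.73 at 162 µg and from -0.03 to 0.26 in the vehicle mice, and the log2 fold change was 0.60 ± 0.43 (SE). Orm1 rose by 2.25 ± 0.35 on day 1, and on day 28, when it was not well above background in any vehicle mouse, its difference did not pass the test (adjusted p = 0.895, limma).

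Serpina3n, a secreted inhibitor of serine proteases, came nearest to the vehicle level among the leading genes. Its log2 ratio at 162 µg ran from 1.81 over a median of 3.37 to 3.76 on day 1 and from 1.32 over 1.69 to 2.29 on day 28. The vehicle mice had 1.12, 1.74, 1.75, 1.82 and 1.85 on day 1 and 1.42, 1.68, 1.69 and 1.80 on day 28. The mice of day 28 overlapped the vehicle mice, with 3 of 10 above and 2 of 10 below all of them. Its log2 fold change was 1.52 ± 0.25 (SE, adjusted p = 0.000163, limma) on day 1 and 0.07 ± 0.27 (95% CI -0.47 to 0.61) on day 28.

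Timp1, an inhibitor of matrix metalloproteinases, changed by 2.69 ± 0.43 on day 1 and 0.66 ± 0.47 on day 28 (log2 fold change ± SE). Hpx, which binds free haem, changed by 1.55 ± 0.25 and then 0.23 ± 0.27, and Cp, the copper protein that oxidises iron for transport, by 1.51 ± 0.29 and then 0.37 ± 0.31. Ccl17, a chemokine for type 2 T cells, was the 1 resolved gene of the 15 CC chemokines, with 1.63 ± 0.38 on day 1 and 0.23 ± 0.41 on day 28. Vnn3, a pantetheinase, changed by 1.36 ± 0.31 and then 0.49 ± 0.34.

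The promoters of Saa3 and Orm2, leading resolved genes, are shown because both hold a C/EBP motif close to the start of the gene. The 160 bases before the first start that RefSeq lists are given 5′ to 3′ on the strand of the gene in build GRCm38.p6, and the capitals mark the match to TTGCNNAA on either strand.
Saa3, chr7:46715677-46715836, minus strand: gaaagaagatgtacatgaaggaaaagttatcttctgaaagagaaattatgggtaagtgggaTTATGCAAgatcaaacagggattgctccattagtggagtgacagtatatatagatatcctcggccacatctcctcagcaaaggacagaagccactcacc
Orm2, chr4:63362289-63362448, plus strand: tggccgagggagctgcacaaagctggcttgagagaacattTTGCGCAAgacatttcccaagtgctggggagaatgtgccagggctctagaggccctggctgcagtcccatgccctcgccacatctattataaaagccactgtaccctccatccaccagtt
In the 250 bases before the start, 12 of the 43 resolved genes that rose and had a promoter in the table held this motif (27.9%), as did 6 of 24 persistent ones (25%), against 8.42% of all 14001 genes with a promoter. A match of letters is a description and not a proven binding site.

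Some genes of iron and metal handling also rose on day 1. Most of those that rose were resolved, as were 65 of all 111 responding genes. Of 13 iron handling genes tested, 6 rose on day 1, and the median of the list went from 0.63 to 0.28. Of the 6, 5 were resolved and only Lcn2, which the acute phase list also holds, was persistent. Among the 5, Hmox1, which breaks down haem, went from a log2 fold change of 0.70 to 0.18, Fth1, the heavy chain of the iron store ferritin, from 0.66 to 0.28, and Tfrc, the receptor that takes up iron, from 0.63 to -0.11. Mt2, a metallothionein that binds zinc and copper, changed by 1.42 ± 0.33 (SE, adjusted p = 0.0112, limma) on day 1 and by 0.14 ± 0.36 on day 28, when all 10 mice at 162 µg lay within the range of the vehicle mice. Sod2, the mitochondrial superoxide dismutase, went from 0.75 to 0.32. In the metallothionein and antioxidant list 4 of 16 genes rose on day 1 and 3 of these were resolved.

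Of 20 neutrophil genes tested 6 rose on day 1, 3 of which were resolved. Csf3r, the receptor for the neutrophil growth factor G-CSF, went from a log2 fold change of 0.75 on day 1 to -0.04 on day 28, and Cxcr2, the receptor for several neutrophil chemokines, from 0.59 to -0.03. Mmp8, the neutrophil collagenase, went from 0.64 to 0.16. Of the others that rose, Clec4d and Clec4e were persistent and Trem1 changed less than 1.5-fold, while 14 genes did not pass, such as Mpo (-0.08 on day 1) and Elane (-0.03), enzymes of neutrophil granules. The median of the list went from 0.48 to -0.02. Over the 5 neutrophil markers tested, Csf3r and Cxcr2 among them, the mean log2 ratio ran from 2.73 to 4.16 at 162 µg on day 1, against 2.44 to 3.07 in vehicle mice, and from 2.00 to 3.23 on day 28, against 2.64 to 2.92. The part of these markers in the change of other genes was not tested.

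Further resolved genes were chosen for this paragraph after their values were seen. Sdf2l1, Manf and Hspa5, which help proteins to fold in the endoplasmic reticulum, had log2 fold changes of 1.19, 0.80 and 0.68 on day 1 and of 0.39, 0.18 and 0.12 on day 28. Ung and Mcm2, which act in the repair and copying of DNA, had 0.78 and 0.63 on day 1 and 0.13 and 0.09 on day 28. C3, the central component of complement, went from 1.04 to 0.41, and Il1r2, the decoy receptor for interleukin 1, from 1.11 to 0.26. Mmp3, a matrix metalloproteinase, went from 0.95 to -0.05. A further 22 resolved genes that rose were Serpina3m, Cyp7b1, Hcar2, Cd177, Tnfrsf9, Muc4, Pbp2, Mefv, Tmem176a, Tmem176b, Lrg1, Steap4, Ppa1, Ifitm1, Isyna1, Orm3, Dok2, Serpina3c, Lgals1, Pla1a, Pdpn and Kcne4. Their log2 fold changes lay between 0.66 (Kcne4) and 1.32 (Serpina3m) on day 1 and between -0.06 (Pdpn) and 0.57 (Hcar2) on day 28.

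The 12 resolved genes that fell on day 1 kept a median of 33.5% of their change. They included Ear1 and Rnase2a, ribonucleases of the eosinophil-associated family, at -1.33 and -1.07 on day 1 and -0.66 and -0.52 on day 28. Abcg1, the exporter of cholesterol that alveolar macrophages depend on, fell by 0.88 on the log2 scale on day 1 and stood at 0.10 on day 28. Cdc42ep3, which binds the small GTPase Cdc42, fell by 0.72 and stood at -0.01 on day 28, a difference of 0.71 (95% CI 0.36 to 1.06). On day 1 all 10 mice at 162 µg lay below all vehicle mice for Cdc42ep3, and on day 28 none did. The vehicle mean of Cdc42ep3 went from 0.37 on day 1 to -0.09 on day 28 and the mean at 162 µg from -0.34 to -0.10, so both moved toward each other. Other genes of this kind were Cidec, Igfbp3, Gsn, Gas6, Ltc4s, Pcolce2 and Dixdc1. Cidec, a lipid droplet protein, is also 1 of 6 adipocyte markers, whose mean log2 ratio ran from 0.77 to 3.83 at 162 µg on day 1 and from 1.23 to 2.93 in vehicle mice, and their part in the result was not tested.

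Among the persistent genes were the chemokines that draw monocytes and neutrophils. Of 15 CC chemokines tested, 6 rose on day 1, of which 5 were persistent (Ccl2, Ccl3, Ccl7, Ccl9 and Ccl20), and the median of the list was 1.13 on day 1 and 0.94 on day 28. Of 12 CXC chemokines 3 rose, of which Cxcl3 and Cxcl5 were persistent and Cxcl12 was resolved, and the median went from 0.60 to 0.40. On day 28 no chemokine passed the adjusted test, and 9 of the CC and 6 of the CXC chemokines had an unadjusted p below 0.05, all higher.

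Cxcl5, a chemokine for neutrophils that lung epithelium makes, was not well above background in any vehicle mouse on either day. Its log2 ratio at 162 µg ran from -3.85 over a median of 0.22 to 1.40 on day 1 and from -3.75 over -0.52 to 1.24 on day 28, while the vehicle mice lay between -3.70 and -3.18 on day 1 and between -3.91 and -3.20 on day 28. It was well above background in 9 of 10 mice at 162 µg on day 1 and in 7 of 10 on day 28. The log2 fold change of the ratios was 3.34 ± 0.70 (SE, adjusted p = 0.00414, limma) on day 1 and 2.45 ± 0.75 (adjusted p = 0.245) on day 28. With the vehicle level as a bound, the means of the lung channel alone gave at least 9.57-fold and at least 5.64-fold in turn, again with no allowance for the spread between mice.

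Ccl2 and Ccl7 are the main ligands of the monocyte receptor CCR2. The log2 ratio of Ccl2 was -4.58, -4.39, -4.37, -4.14 and -4.08 in the vehicle mice of day 1 and ran from -4.48 over a median of -2.30 to -0.81 at 162 µg. On day 28 it was -5.25, -4.68, -4.49 and -4.37 in vehicle mice and ran from -4.52 over -2.73 to -0.77. On each day 8 of 10 mice at 162 µg lay above all vehicle mice, and the others overlapped them. The log2 fold change was 1.97 ± 0.46 (SE, adjusted p = 0.0101, limma) on day 1 and 1.89 ± 0.49 (adjusted p = 0.158) on day 28. Between the days it differed by -0.09 (95% CI -1.43 to 1.26), an interval that holds both a loss and a gain of over 2-fold. Ccl7 went from 2.23 ± 0.51 to 1.96 ± 0.55, and its pair of probes gave 2.02 and 2.44 on day 1.

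Ly6f, a small membrane protein of the Ly6 family, had nearly the same change on both days, at 2.33 ± 0.57 and 2.31 ± 0.62 on the log2 scale (SE). Its log2 ratio on day 28 ran from 0.35 over a median of 3.86 to 4.66 at 162 µg and was 0.31, 0.35, 0.47 and 0.64 in the vehicle mice. Of the 10 mice at 162 µg on day 28, 7 lay above all vehicle mice and the others among them. Ly6i, which is close to Ly6f in sequence so that signal may be shared, went from 0.77 to 0.83.

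Lcn2, which starves bacteria of iron by binding their siderophores, had the largest day 1 change among the persistent genes after Cxcl5. Its log2 ratio at 162 µg ran from 0.91 over a median of 4.62 to 4.87 on day 1 and from 1.04 over 3.60 to 4.47 on day 28, and the vehicle mice lay between 0.76 and 1.20 on day 1 and between 1.19 and 1.40 on day 28. On day 28, 6 of 10 mice lay above all vehicle mice and 3 below all of them. Lcn2 changed by 3.04 ± 0.55 on the log2 scale (SE, adjusted p = 0.000535, limma) on day 1 and 1.61 ± 0.59 (adjusted p = 0.44) on day 28, so that 53.1% was kept, close to the line between the groups.

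**Figure D2:**
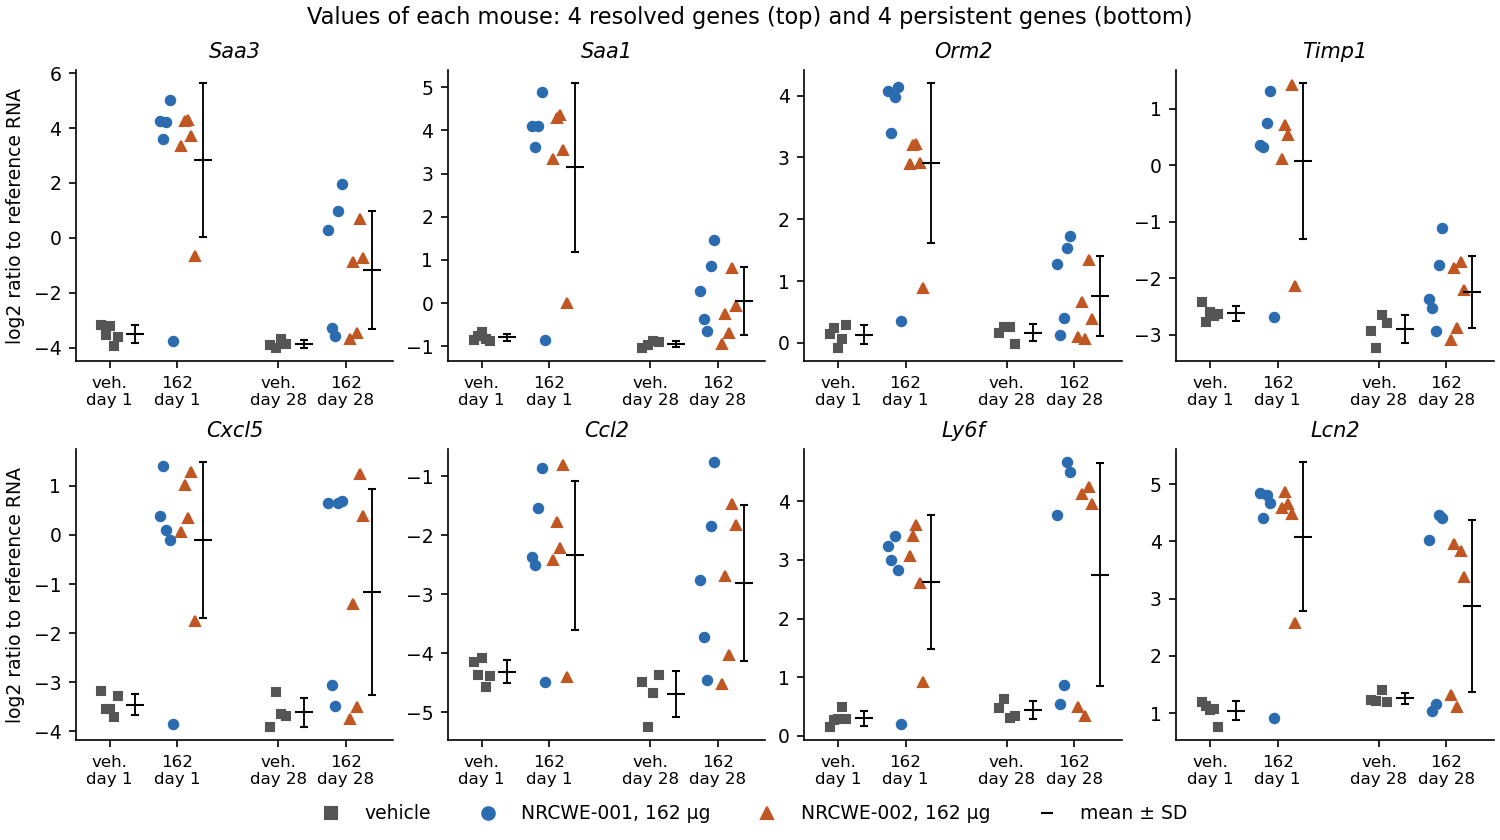
The log2 ratio to the reference RNA is plotted for each vehicle mouse (squares) and each mouse at 162 µg of NRCWE-001 (circles) or NRCWE-002 (triangles) on days 1 and 28, with the mean ± SD of each set beside it. In the top row (Saa3, Saa1, Orm2, Timp1) most mice at 162 µg on day 28 lie nearer to the vehicle mice than on day 1, while in the bottom row (Cxcl5, Ccl2, Ly6f, Lcn2) the mice of day 28 spread from the vehicle level up to the levels of day 1.

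Noxo1, the organising subunit of an NADPH oxidase, changed by 2.14 ± 0.40 and then 1.33 ± 0.43 (log2 fold change ± SE). Ch25h, which makes 25-hydroxycholesterol, changed by 1.56 ± 0.38 and then 1.25 ± 0.41. Clec4d, a C-type lectin receptor of myeloid cells, changed by 1.34 ± 0.28 and then 1.00 ± 0.30, and Ccl9, a chemokine for myeloid cells, by 1.24 ± 0.32 and then 1.01 ± 0.35. Unadjusted p-values on day 28 in limma were 0.00311, 0.0038, 0.00166 and 0.00531 in turn, and adjusted ones ran from 0.238 to 0.36.

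The cytokines Il1b and Il6 and the feedback regulators Nfkbiz and Socs3 were persistent. Il1b, the inflammatory cytokine interleukin 1 beta, went from a log2 fold change of 1.77 to 0.89, and Il6, which drives STAT3, from 1.14 to 0.61. Nfkbiz, an inducible partner of NF-kappa B, went from 0.82 to 0.50, and Socs3, the feedback inhibitor of STAT3, from 0.62 to 0.35. In the list of 17 feedback genes 3 rose on day 1, 2 of them by 1.5-fold, and the median was 0.46 on day 1 and 0.44 on day 28, when 12 of the 17 had an unadjusted p below 0.05, all higher. Egr1, an immediate early transcription factor, went from 1.17 to 0.94, and was the 1 gene of 19 immediate early genes that passed on day 1.

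The 15 persistent genes that rose and are not described elsewhere were Il4i1, Vnn1, Alpl, Itga7, Clmp, Bcl2l15, Gadd45g, Clec4e, Ptges, Ctps, Tgfbi, Serpind1, Ptgs1, Tubb6 and Ifitm3. Their log2 fold changes lay between 0.60 (Ifitm3) and 1.49 (Il4i1) on day 1 and between 0.37 (Ifitm3) and 1.00 (Il4i1) on day 28. Ptgs1 and Ptges are enzymes of prostaglandin synthesis, and Clec4e is a lectin receptor of myeloid cells.

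The promoters of Ccl9 and Il6, both persistent, are shown for their match to the kappa B motif GGNNTTTCC, marked in capitals, with the same build, length and direction as above.
Ccl9, chr11:83578637-83578796, minus strand: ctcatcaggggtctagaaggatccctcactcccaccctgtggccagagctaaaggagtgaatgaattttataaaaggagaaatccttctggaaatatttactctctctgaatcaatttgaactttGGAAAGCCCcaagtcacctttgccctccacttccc
Il6, chr5:30012954-30013113, plus strand: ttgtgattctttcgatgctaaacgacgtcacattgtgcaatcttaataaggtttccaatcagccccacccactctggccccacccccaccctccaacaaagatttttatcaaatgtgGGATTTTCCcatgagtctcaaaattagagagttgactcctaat
The motifs were searched apart and a promoter may hold several. Saa3 held the kappa B motif and the interferon motif GAAANNGAA too, and Il6 the C/EBP motif. In the 250 bases before the start, the kappa B motif was held by 4 of 24 persistent genes that rose (16.7%) and 4 of 43 resolved ones (9.3%). It was held by 4 of 11 genes of the interferon list (36.4%) and by 4.86% of all genes with a promoter. The STAT motif TTCNNNGAA was held by 1 of 24 (4.17%) and 5 of 43 (11.6%), against 6.59%.

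The 11 persistent genes that fell on day 1 kept a median of 62.9% of their change. Fabp1, a fatty acid binding protein, had the largest fall. Its log2 ratio was 4.61, 4.62, 4.81, 5.35 and 5.54 in the vehicle mice of day 1 and ran from 1.22 over a median of 3.42 to 4.88 at 162 µg, and on day 28 it was 4.60, 4.99, 5.07 and 5.55 in vehicle mice and ran from 2.75 over 3.56 to 5.22. On each day 8 of 10 mice lay below all vehicle mice. On the log2 scale Fabp1 changed by -1.49 ± 0.37 (SE, adjusted p = 0.0194, limma) on day 1 and -1.29 ± 0.40 (adjusted p = 0.249) on day 28.

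Dbp, a transcription factor driven by the circadian clock, had log2 fold changes of -1.07 on day 1 and -0.95 on day 28, and Nfil3, which acts on the same sites in the opposite sense, had 0.62 and 0.85. They were the 2 genes of 17 clock genes that passed on day 1. Siglecf, a sialic acid receptor of alveolar macrophages, fell on day 1 (adjusted p = 0.00512, limma) and had -0.63 on day 28, and it was the 1 alveolar macrophage marker of 7 that passed. Over those 7 markers the mean log2 ratio ran from 3.07 to 4.09 at 162 µg on day 1 and from 2.98 to 4.04 on day 28, against 3.57 to 4.03 and 3.34 to 3.85 in vehicle mice, and their part in the result was not tested. The other genes of this kind were Bcan, Cyp1a1, Bex1, Cdh16, Ces1f, Myh7, Cpne5 and Cdh13.

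**Figure D3:**
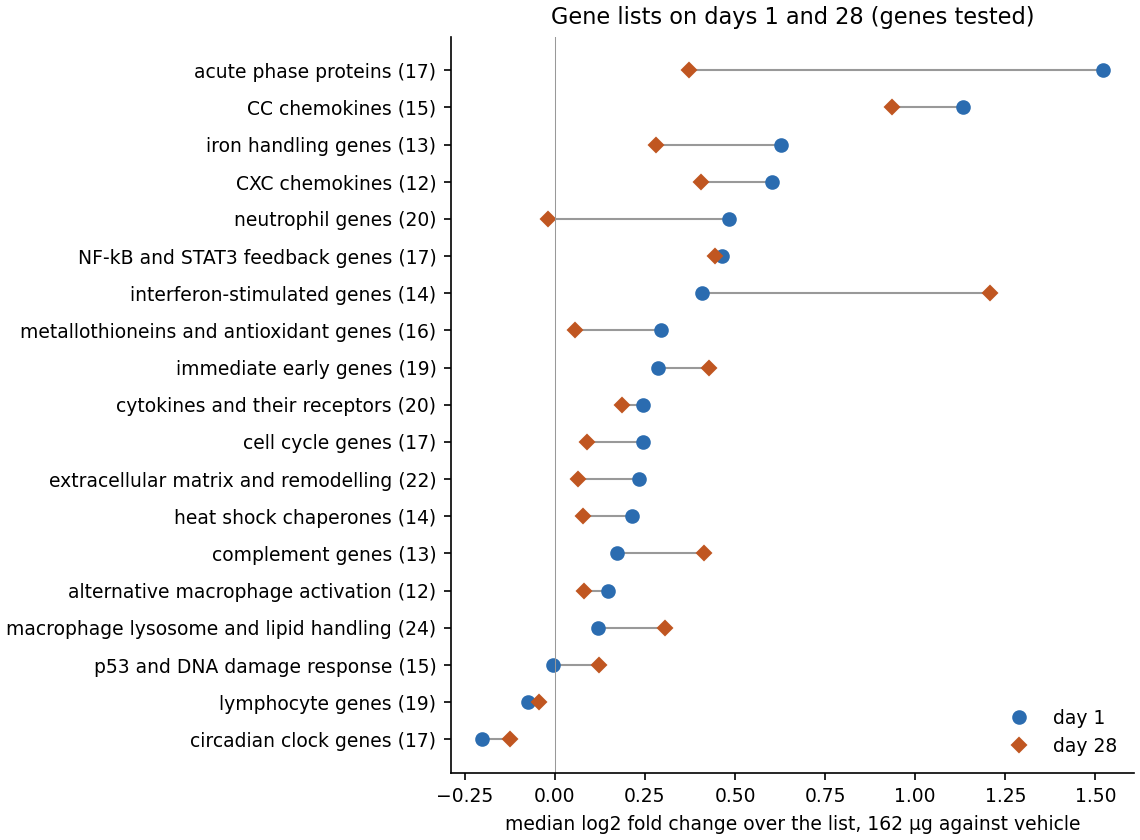
For each gene list, with the number of genes tested in brackets, the median log2 fold change at 162 µg against vehicle is plotted for day 1 (circles) and day 28 (diamonds). The acute phase list moves from 1.52 to 0.37 and the neutrophil list from 0.48 to -0.02, the CC chemokines and the feedback genes stay at nearly the same place, and the interferon-stimulated genes move from 0.41 to 1.21.

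Hspa1a, the stress-induced form of the chaperone Hsp70, was the 1 late gene. Its log2 ratio on day 1 was 0.59, 0.86, 0.92, 0.97 and 1.13 in vehicle mice and ran from 0.88 over a median of 1.07 to 1.89 at 162 µg. On day 28 it was 0.05, 0.75, 0.80 and 1.20 in vehicle mice and ran from 1.11 over 1.67 to 2.46. On day 28, 8 of 10 mice at 162 µg lay above all vehicle mice, and the vehicle mouse at 0.05 lay far below the other 3. The log2 fold change was 0.26 ± 0.17 (SE, adjusted p = 0.715, limma) on day 1 and 0.97 ± 0.19 (adjusted p = 0.0255) on day 28, and both probes gave it (0.95 and 0.99 on day 28). Without vehicle mouse 2 of day 28 it was 0.75 (adjusted p = 0.219), and it was 0.83 with slide as a fixed block (adjusted p = 0.361).

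The rise of Hspa1a on day 28 did not follow the dose. For NRCWE-001 its log2 fold change against vehicle was 2.23 at 18 µg (adjusted p = 9.58e-11, limma), 1.12 at 54 µg (adjusted p = 0.0383) and 0.80 at 162 µg (adjusted p = 0.159). For NRCWE-002 it was 0.78 (adjusted p = 0.508), 0.49 (adjusted p = 0.955) and 1.14 (adjusted p = 0.0266). Hspa1b, a nearly identical copy whose probe may share signal with it, had 1.08 at 18 µg of NRCWE-001. The other 12 chaperones of the list held 1 gene that passed on day 1, Hspa5, and none that passed on day 28. The promoter of Hspa1a is shown for its heat shock element GAANNTTC, in capitals, a motif that 5.57% of all genes with a promoter held in the 250 bases before the start.
Hspa1a, chr17:34972157-34972316, minus strand: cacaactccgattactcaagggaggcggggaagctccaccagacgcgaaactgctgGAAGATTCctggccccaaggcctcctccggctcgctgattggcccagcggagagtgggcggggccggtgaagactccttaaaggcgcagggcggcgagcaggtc

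Interferon-stimulated genes were the list with the largest median on day 28. None of the 14 genes tested passed the adjusted test on either day, but 13 of 14 were higher on day 28 at an unadjusted p below 0.05, and the median log2 fold change was 0.41 on day 1 and 1.21 on day 28. These genes are named after their values were seen. Irf7, the factor that amplifies the interferon response, ran from -1.96 over a median of 1.07 to 3.52 in log2 ratio at 162 µg on day 28, against -1.79 to -0.97 in vehicle mice. Its log2 fold change was 0.53 on day 1 and 1.92 ± 0.54 (SE) on day 28, with an adjusted p of 0.187 in limma. Oas1a, an antiviral enzyme that senses double-stranded RNA, went from 0.43 to 1.57. Cxcl10, the interferon-induced T cell chemokine, had 1.79 on day 1 and 2.20 on day 28.

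Oas1a shows the interferon motif next to its start. The capitals mark 2 overlapping matches to GAAANNGAA, which 7 of 11 genes of the list with a promoter held (63.6%), against 6.71% of all genes with a promoter.
Oas1a, chr5:120907526-120907685, minus strand: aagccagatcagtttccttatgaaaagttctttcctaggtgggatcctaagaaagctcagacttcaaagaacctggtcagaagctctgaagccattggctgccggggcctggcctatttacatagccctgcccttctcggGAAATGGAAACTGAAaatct

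Beyond the 1 late gene, 74 genes changed at least 1.5-fold on day 28 at an unadjusted p below 0.05 and were under 50% as large on day 1, of which 72 were higher and 9 belonged to the interferon list. Only 6 of them had an adjusted p below 0.1, and the smallest, for Igtp, an interferon-induced GTPase, was 0.054. The next are named after their values were seen. Jchain, which joins secreted antibodies, had a log2 fold change of 0.07 on day 1 and 1.75 on day 28 (adjusted p = 0.0545, limma), with 8 of 10 mice above all vehicle mice. Gpnmb and Trem2, of lipid-laden macrophages, had 0.36 and 0.11 on day 1 and 1.82 (adjusted p = 0.112) and 1.44 (adjusted p = 0.0724) on day 28. Spp1, osteopontin, was not in this set, since it had 1.08 on day 1, over 50% of the 2.08 it had on day 28.

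The mice at 162 µg did not respond alike, and on day 28 they differed far more than the vehicle mice. The median over the 46 persistent genes, as a log2 difference from the vehicle mean of the day in the direction of day 1, was 0.90 in NRCWE-001 mouse 1, 0.22 in mouse 2, 0.20 in mouse 3, 1.11 in mouse 4 and 1.28 in mouse 5. In NRCWE-002 it was 0.05 in mouse 1, 0.69 in mouse 2, 0.12 in mouse 3, 1.03 in mouse 4 and 0.96 in mouse 5. The vehicle mice of day 28 reached at most 0.15. Both particles thus had mice near the vehicle level and mice near the levels of day 1. The median SD of a persistent gene over the 10 mice was 0.46 on day 1 and 0.56 on day 28, against 0.19 and 0.25 in vehicle mice. Over all genes the median SD was 0.13 and 0.22 at 162 µg and 0.12 and 0.15 in vehicle mice. The wider spread on day 28 was thus not particular to the persistent genes.

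The median over the 65 resolved genes was lower in each of these mice, which follows in part from how the groups were made. It lay between -0.04 and 0.49 on day 28. In the same mice the interferon list had medians of 1.14, 0.05, -0.05, 1.96 and 2.25 for NRCWE-001 and of -0.19, 1.94, -0.12, 2.45 and 2.13 for NRCWE-002, and its highest vehicle mouse had 0.06. The number of interferon genes past all vehicle mice was 14, 3, 3, 14 and 14 of 14 for NRCWE-001 and 2, 13, 3, 14 and 14 for NRCWE-002. The order of the mice was thus much the same for persistent and interferon genes, which come from the same arrays. The median SD of an interferon gene over the 10 mice was 0.38 on day 1 and 1.15 on day 28, against 0.13 and 0.22 over all genes.

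On day 1 most mice lay close together. In 8 of 10 mice the median over the persistent genes lay between 0.94 and 1.36 and that over the resolved genes between 0.85 and 1.39. NRCWE-002 mouse 5 had 0.35 and 0.32, and NRCWE-001 mouse 5 had 0.16 and 0.06, close to the highest vehicle values of 0.07 and 0.04. The median SD of a resolved gene over the 10 mice was 0.47 on day 1 and 0.34 on day 28. In NRCWE-001 mouse 5 the log2 ratio of Saa3 was the lowest of the 10 mice, -3.74, and lay within the range of the vehicle mice.

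Most markers of monocytes and interstitial macrophages were higher on day 28, while those of alveolar macrophages were not. Of the 7 alveolar macrophage markers, 2 were lower on day 28 at an unadjusted p below 0.05 in limma and none was higher. Over the 8 markers of monocytes and interstitial macrophages, of which Cd14 is itself a persistent gene, the median log2 fold change was 0.26 on day 1 and 0.74 on day 28, when 6 of 8 were higher at an unadjusted p below 0.05, while Ccr2 (-0.17) and Cx3cr1 (0.01) were not. Their mean log2 ratio ran from 0.67 to 2.31 at 162 µg on day 28 and from 0.86 to 0.94 in vehicle mice. Of the 6 endothelial markers, Pecam1 was lower on day 28 at an unadjusted p below 0.05, and the list ran from 4.55 to 5.30 against 4.95 to 5.33. The 7 cardiac muscle markers ran from 0.12 to 3.77 at 162 µg and from 0.42 to 2.50 in vehicle mice on day 28, and none passed either test. The part of these markers in the result was not tested.

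**Figure D4:**
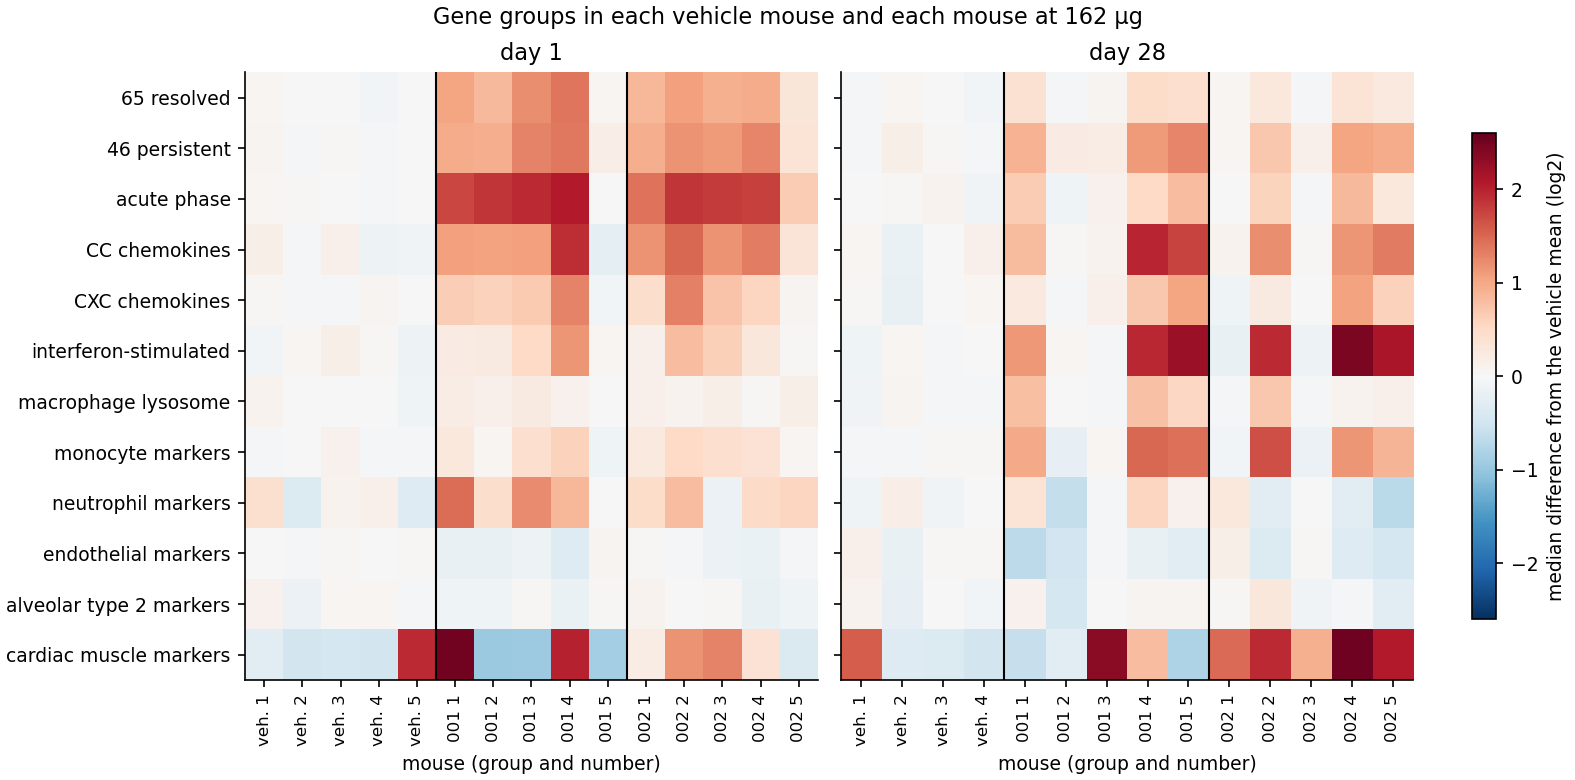
Each column is 1 mouse, a vehicle mouse or a mouse at 162 µg of NRCWE-001 or NRCWE-002, on day 1 (left) or day 28 (right), and each row is a gene group or list. Colour gives the median log2 difference from the vehicle mean of the day, with the 65 resolved and 46 persistent genes turned to their day 1 direction. On day 28 the persistent and interferon rows are strong in NRCWE-001 mice 1, 4 and 5 and NRCWE-002 mice 2, 4 and 5 and pale in the other 4 mice, and the cardiac muscle row varies among vehicle mice too.

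On day 1, 5 slides held a vehicle mouse and a mouse at 162 µg, and within each the median over the persistent genes lay between 0.94 and 1.32 and that over the resolved genes between 0.82 and 1.24. On day 28 there were 3 such slides, with medians over the persistent genes of 0.77, 0.16 and 0.08 and over the resolved genes of 0.29, 0.03 and 0.03. The mice at 162 µg on these 3 slides were NRCWE-001 mouse 1 and NRCWE-002 mice 3 and 1. A slide with no vehicle mouse held NRCWE-001 mouse 3 (0.20 over the persistent genes) beside NRCWE-002 mouse 5 (0.96). The 1 scan day of day 28 with over 1 mouse at 162 µg and a vehicle mouse gave 0.65 over the persistent genes and 0.31 over the resolved genes. On day 1 all 111 genes passed limma's test with slide as a fixed block, among 1345 genes in all, and on day 28 none did.

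Full separation of all mice at 162 µg from all vehicle mice was seen for 26 of the 111 genes on day 1, against 225 of all genes (1.28%), and for none on day 28, against 20 of all genes (0.113%). The 111 genes were chosen on the same mice of day 1, so their count on that day follows in part from the choice. Of the 26 genes, 13 were resolved and 13 persistent.

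The lower doses gave a look at the same genes in mice whose levels did not enter the fold changes that chose them. The contrast of 54 µg with 18 µg, with 10 mice each and both particles pooled, shares no array with the comparison at 162 µg. On day 1, 110 of the 111 genes had the sign of the 162 µg effect, and 93 had an unadjusted p below 0.05 in that direction and none in the other, while over all genes 3.41% were higher and 2.01% lower at that level. Of all 17639 genes 11440 had the sign of their own 162 µg effect on day 1, and 811 had that p in that direction and 145 in the other. Limma called 13 genes (0.0737%) in this contrast, 11 of them among the 111. Of the 65 resolved genes all had the same sign and 58 had an unadjusted p below 0.05, and of the 46 persistent genes 45 had the same sign and 35 that p.

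On day 28 the same contrast showed no such pattern. Of the 111 genes 39 had the sign of the day 1 effect, 5 had an unadjusted p below 0.05 in that direction and 3 in the other, while over all genes 3.53% were higher and 1.96% lower. Of all 17639 genes 7579 had the sign of their own day 1 effect, and 388 had that p in that direction and 581 in the other. The persistent genes had 17 of 46 with the same sign, and 2 with that p. In single mice the median over the persistent genes on day 28 ran from -0.03 over 0.23 to 0.57 at 18 µg, from 0.002 over 0.19 to 0.52 at 54 µg and from 0.05 over 0.80 to 1.28 at 162 µg. At 162 µg 8 of 10 mice lay above the highest vehicle mouse, at 54 µg 6 of 10 and at 18 µg 5 of 10, with no order between the lower doses.

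**Figure D5:**
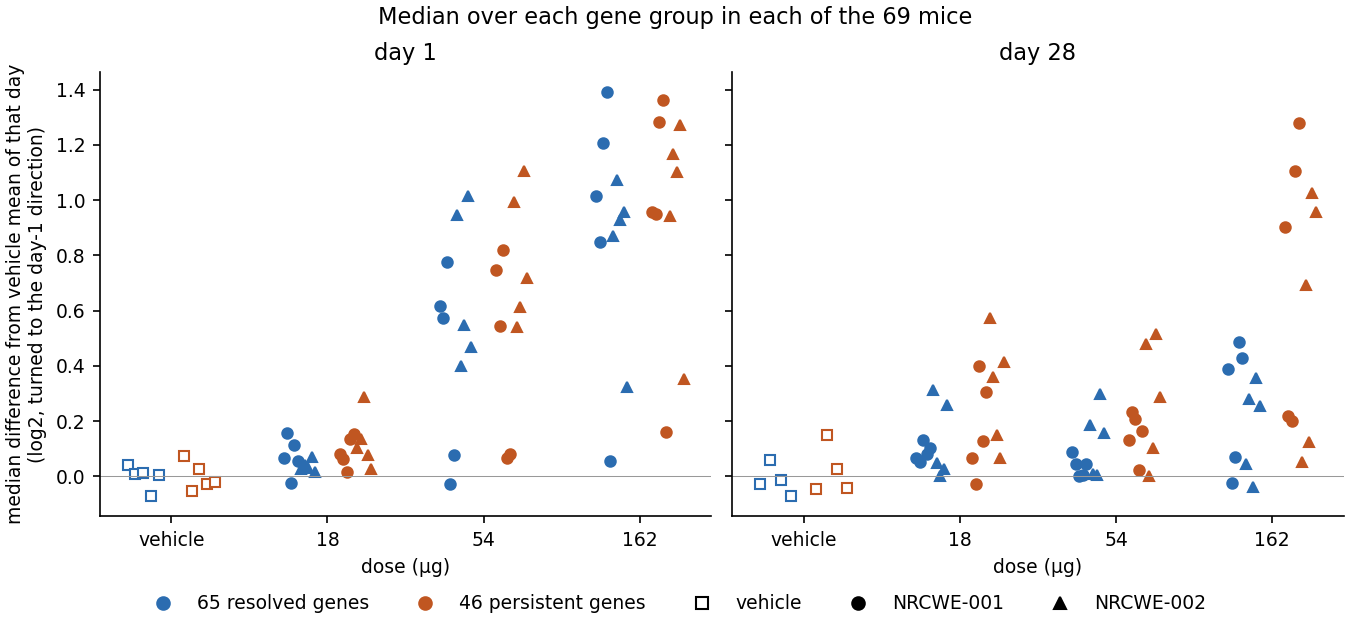
Each point is 1 of the 69 mice, and the vertical axis gives the median over the 65 resolved genes (blue) or the 46 persistent genes (orange) of the log2 difference from the vehicle mean of the day, turned to the direction of day 1, by dose and day. On day 1 both groups rise from 18 to 54 to 162 µg, with medians over mice of 0.05, 0.56 and 0.94 for the resolved genes and of 0.09, 0.66 and 1.03 for the persistent genes, and on day 28 the persistent genes at 162 µg spread from 0.05 to 1.28.

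The unmodified and the charged particle were also taken apart at 162 µg, where each has 5 mice a day and both share the vehicle mice. On day 1 the median log2 fold change over the 111 genes in the direction of the pooled effect was 0.91 for NRCWE-001 and 0.88 for NRCWE-002. On day 28 the median over the persistent genes was 0.77 and 0.61 and that over the resolved genes was 0.27 and 0.19, in turn. All 46 persistent genes had the day 1 sign in both particles on day 28, as did 49 of the 65 resolved genes. The groups were made from the pooled change of these same mice, so these medians and counts follow in part from that choice. The difference between the particles was not tested here.

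The vehicle mice themselves shifted little between the days. Of the 111 genes 61 moved from day 1 to day 28 in vehicle mice in the direction of the day 1 effect, by a median of 0.02 on the log2 scale, and 6 had an unadjusted p below 0.05. Over all 17639 genes 11363 moved in that direction and 889 had such a p. The vehicle mice of day 1 enter both the day 1 effect and this change, which favours a shared sign. The counts of signs thus cannot show whether these genes stood out. A fall of the vehicle level adds to a fold change on day 28, as for Ccl2, whose vehicle mean went from -4.31 to -4.70. In some genes with the smallest p for the difference between days, the vehicle mean moved more than the mean at 162 µg. Plcb1, a phospholipase, had a mean log2 ratio of 1.02 and 0.98 at 162 µg on the 2 days and of 0.79 and 1.43 in vehicle mice, and Guk1, a guanylate kinase, had 0.14 and -0.05 at 162 µg and 0.01 and 0.28 in vehicle mice. Letm2 (difference 0.45), S1pr3 (-0.51) and Bmper (-0.71) completed the 8 genes with the smallest p for the difference, with Saa2, Cdc42ep3 and Serpina3n.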

How the data were processed

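Lung RNA of single mice was labelled with Cy5 and hybridised with Universal Mouse Reference RNA in Cy3 on 2-colour Agilent arrays, read with Agilent Feature Extraction according to the submitters' processing notes. The deposited value table holds log2 ratios, which the authors normalised with LOWESS within each array, taking the median of repeated probes. Whether they corrected background is not given in the sources used here, and each column of the table best matched the scanner file of its own array on all 69 arrays. The deposited scanner intensity values gave the background flags, slides, scan days and alternative log2 ratios. No dyes were swapped, so a dye effect specific to a gene cancels only between groups. Since the array number limits the precision, 4 to 10 mice a group set it here.

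Probes that matched 1 RefSeq symbol (27479 of 41174) and were well above background in the lung channel on at least 4 arrays were kept, and their median was taken for each of 17639 genes. limma (version 3.58.1, R 4.3.3) was fitted to all 69 arrays with 14 group means and no covariate, with Benjamini-Hochberg adjustment over all genes at 0.05. The fit was tested on simulated data with the same spread for a gene in all groups and no effect of slide or scan day. In the real data the spread differed between groups, so that test cannot show how the fit behaves on them. Named genes were the 12 resolved genes with the largest change on day 1, the 10 persistent genes with the largest change on day 28, the late gene, the 8 genes with the smallest p for the difference and responding members of the gene lists. The members and lists were chosen with earlier results of these data known. Separate animals are given by the labels, which hold no replicate numbers, and 0 columns of the table lacked a sample. Levels of different genes are not comparable, since each is a ratio to the reference. A few genes that the counts include are not reported here by name.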

Additional observations from a re-analysis of the deposited data

Results flagged for a closer look

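A few values stood alone in their set of mice, or showed a signal outside the comparison at 162 µg. Over 116 sets of mice looked at, 3 held a lone value, and chance alone gives about 1 set in 20. The log2 ratio of Ccl17 was 1.51 in NRCWE-001 mouse 5 at 162 µg on day 1, below the next of the 10 mice at 2.78. The log2 ratio of Serpina3n was 1.12 in vehicle mouse 4 of day 1, below the next of the 5 mice at 1.74. The log2 ratio of Hspa1a was 1.89 in NRCWE-001 mouse 3 at 162 µg on day 1, above the next of the 10 mice at 1.31.

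Hspa1a also changed by 2.23 on the log2 scale at 18 µg of NRCWE-001 on day 28, against vehicle. The interferon list had a median log2 difference of 2.0 from the vehicle mean in NRCWE-002 mouse 1 at 54 µg on day 28, where the strongest mouse at 162 µg had 2.45.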

How the results depend on the processing

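The count of genes called on day 1, 255 in limma, was 1345 with slide as a fixed block, 1246 with slide as a random block, 1602 with scan day as a block, 111 or 124 with only the 29 arrays (particles apart or pooled), 110 with NRCWE-001 alone and 104 with NRCWE-002 alone. The count on day 28, 2, was 0 with the scanner's processed signals, slide as a fixed block or scan day, 8 with probes above background on 35 arrays, 5 with slide as a random block, 1 with only the 29 arrays either way, 9 with NRCWE-001 alone, 1 with NRCWE-002 alone, and 12 without the 2 brightest arrays at 162 µg on day 28, a choice made after seeing the data. The difference between days, 0, gave 15, 42 and 50 calls with slide fixed, slide random and scan day. Resolved genes, 65, numbered 116, 107 and 114 in these 3 fits, 25 with 2-fold, 181 with no fold limit and 37 with a 25% limit on the share kept. Persistent genes, 46, numbered 71 with scan day, 15 and 18 with 29 arrays, 23 and 11 with NRCWE-001 and NRCWE-002 alone, 20 with 2-fold, 74 with no fold limit, 74 with a 25% limit and 17 with a 75% limit. Of the 46 persistent and 65 resolved genes, 31 and 62 kept their group with slide as a fixed block, and 38 and 61 with scan day. Late genes, 1, numbered 0 with processed signals, slide fixed, scan day, 29 arrays or 2-fold, 2 with slide random, 4 with the stricter probe filter, 6 with NRCWE-001 alone and 7 without the 2 brightest arrays. With NRCWE-002 alone, 31 genes in place of 53 had an unadjusted p below 0.05 on day 28. No result reversed, and the cause of these shifts was not tested. Of the alternative values of named genes, 518 kept their call, 40 lost it and 16 gained it. Hspa1a lost its call on day 28 with processed signals (adjusted p = 0.0779 in limma), slide fixed (0.361), scan day (0.057), the 29 arrays (0.374 and 0.441) and NRCWE-001 alone (0.159).

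Leaving out 1 mouse gave 140 to 482 calls on day 1, 0 to 83 on day 28 and 0 to 6 for the difference, 42 to 122 resolved, 27 to 67 persistent and 0 to 44 late genes, 35 to 60 genes with an unadjusted p below 0.05 on day 28, and a median share kept of 37.8% to 50.1%. For 54 against 18 µg it gave 81 to 100 genes on day 1 and 4 to 7 on day 28. On day 1 the count moved most without NRCWE-001 mouse 5 (482), NRCWE-002 mouse 5 (396), vehicle mouse 4 (140), vehicle mouse 3 (152), NRCWE-001 mouse 4 (156), vehicle mouse 1 (162) and vehicle mouse 2 (164). On day 28 it was 78 without NRCWE-002 mouse 1, 83 without NRCWE-002 mouse 3, 53 without NRCWE-001 mouse 2 and 79 without NRCWE-001 mouse 3, with 44, 44, 27 and 38 late genes. It was 0 without vehicle mouse 1, 2 or 4, NRCWE-002 mouse 2 or NRCWE-001 mouse 4 or 5. It was 1 without vehicle mouse 3 or NRCWE-002 mouse 4, 6 without NRCWE-001 mouse 1 and, for mice of day 1 left out, 9 without NRCWE-001 mouse 5, 6 without NRCWE-002 mouse 2, 5 without NRCWE-002 mouse 4 and 4 without NRCWE-001 mouse 4. No paired analysis was possible because the labels give no replicate numbers that groups share. The main fit had no block, and slides and scan days served as blocks only in the alternative fits given above.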
